A study of Drosophila melanogaster with 2 samples.

Results

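Promoter summits of the Drosophila transcription factor Odd-skipped whose neighbouring start sites all point the same way are described here. The pooled list was made by irreproducible discovery rate analysis (IDR, which compares the ranks of peaks between replicates). A peak of this list was taken when its summit lay within 500 bp of a transcription start site (TSS) of a protein-coding gene. All protein-coding TSSs within that distance also had to lie on 1 strand. This rule, which uses positions and no measured strength, held for 1421 of the 4291 summits of the list, or 33.1% (exact 95% binomial interval 31.7 to 34.6). These are called 1-strand summits. A further 420 summits had TSSs on both strands within 500 bp and are called both-strand summits, and the remaining 2450 lay farther than 500 bp from any protein-coding TSS.

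Chromatin was recovered by immunoprecipitation and sequencing (ChIP-seq) from whole embryos of 0 to 16 h, males and females together, in 2 biological replicates of 1 group. The flies carried a transgene in which eGFP is fused to the C terminus of Odd, and the fusion was pulled down with an antibody against GFP. The promoter of the transgene is not stated in the labels, and no untagged embryos were analysed here. Each replicate is numbered as a biological one in the labels, which do not say how its embryos were collected. Since whole embryos of all these ages were mixed, few cells with much bound protein and many cells with little cannot be told apart. The signal value of a peak is the authors' own, a score of the peak caller that was used only to rank and describe peaks within 1 list. With 2 samples of 1 group, no test over samples exists. Intervals cover the counting of peaks or genes only, and each replicate's own value is given beside the pooled one.

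Odd-skipped, a pair-rule factor with zinc fingers, helps to set up alternating segments in the early embryo and acts mainly as a repressor that recruits Groucho. Later it marks joints, parts of the gut and other tissues together with its paralogues Sob, Drumstick and Bowl. Fly promoters come in broad kinds. Housekeeping genes often start from both strands of a short shared stretch and carry the DNA replication-related element (DRE) or the so-called motif 1, while developmentally regulated genes more often start alone and carry an initiator (Inr), a TATA box or repeats bound by the GAGA factor Trl.

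The DNA at 3 of the strongest 1-strand summits shows what such a site looks like. Each line gives 101 bp centred on the summit, on dm6, along the direction of transcription of the gene, with the summit at the middle base and with any TATAAA or TCAGTT on either strand in capitals. They were taken from the strongest summits as the first whose window lies outside annotated exons and on a chromosome arm whose sequence is shown here.
CG14100, chr3L:19590574-19590674, minus strand: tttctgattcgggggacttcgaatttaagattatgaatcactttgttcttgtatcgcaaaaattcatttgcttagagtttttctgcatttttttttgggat
CG18549, chr3R:12449134-12449234, plus strand: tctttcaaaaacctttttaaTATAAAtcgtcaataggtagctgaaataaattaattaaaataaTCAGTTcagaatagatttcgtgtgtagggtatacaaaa
Gapdh2, chrX:15867934-15868034, plus strand: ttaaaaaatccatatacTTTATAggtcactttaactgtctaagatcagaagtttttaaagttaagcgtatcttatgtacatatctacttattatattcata
The middle base lies 100 bp upstream of the TSS of CG14100, 112 bp upstream of that of CG18549 and 161 bp upstream of that of Gapdh2, the glycolytic enzyme glyceraldehyde-3-phosphate dehydrogenase. None of the 3 windows holds the word GAGAGAG, the DRE word TATCGATA or the word ACAGTAGC, a core of the sequence known to be bound by Odd.

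Words compared between the kinds of promoter are shown next in their surroundings, each at the strongest 1-strand summit (for the GAGA word, the 3 strongest) that holds it upstream of the TSS, outside annotated exons and on an arm shown here, with the word or its reverse complement in capitals and 20 bp on each side. The first 3 lines carry the GAGA word, then follow the DRE word, motif 1 (GGTCACAC), the E-box word CAGCTG and the Odd word.
Ptpmeg2, chrX:9640688-9640734, minus strand: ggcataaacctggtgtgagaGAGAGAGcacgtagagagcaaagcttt
CG1907, chr3R:29618914-29618960, plus strand: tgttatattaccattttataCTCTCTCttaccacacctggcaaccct
Btk, chr2L:8277744-8277790, minus strand: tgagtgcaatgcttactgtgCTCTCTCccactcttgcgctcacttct
RpS10b, chrX:19597934-19597981, plus strand: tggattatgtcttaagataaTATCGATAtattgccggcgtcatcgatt
Vha68-2, chr2L:12974139-12974186, plus strand: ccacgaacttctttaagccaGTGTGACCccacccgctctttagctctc
CG8036, chr3R:8669436-8669481, plus strand: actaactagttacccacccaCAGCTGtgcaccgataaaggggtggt
aru, chr2L:865966-866013, minus strand: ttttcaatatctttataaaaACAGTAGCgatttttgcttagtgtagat
The signal values at these summits were 923.4 for Ptpmeg2, a protein tyrosine phosphatase, 912.4 for CG1907, 817.1 for Btk, a cytoplasmic tyrosine kinase, and 895.4 for RpS10b, a protein of the small ribosomal subunit. The summit at Vha68-2, a subunit of the vacuolar proton pump, had a signal value of 307.2. The summit at CG8036 had 964.5, and that at aru, an adaptor protein of the Eps8 family, had 628.2.

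Among the 1841 promoter summits, 77.2% had their TSSs on 1 strand (95% interval 75.2 to 79.1). In replicate 1 alone the share was 75.6% (1369 of 1810 promoter summits among its 4291 strongest peaks) and in replicate 2 alone 76.8% (1525 of 1987). Of all 19253 positions of protein-coding TSSs in the annotation, 76.7% likewise had no opposite-strand TSS within 500 bp. The share among summits was near this value. The units differ, since a summit between paired starts counts once, while each of their TSS positions counts. Near values therefore do not mean that both kinds of start site had summits equally often. The 1-strand summits fell into 1326 separate regions and lay nearest to the TSSs of 1214 genes. In 276 of them (19.4%) 2 or more TSS positions lay within 500 bp, and 34 had TSSs of 2 genes on the same strand.

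Of the strongest 1-strand summits, that at the X-linked gene Ugalt (FBgn0024994), which codes for the transporter that brings UDP-galactose into the Golgi, had a signal value of 2469 and was the second strongest of the whole list. Its signal value was 1283 in replicate 1 and 1181 in replicate 2, where it ranked 2 and 3. CG14100 (FBgn0036889) followed with 2173 in the pooled list, 1227 in replicate 1 and 950.5 in replicate 2. Both summits lay upstream, at 34 and 100 bp from their start sites. The summit at px, a nuclear protein of wing vein patterning, had 2015 in the pooled list, 1065 in replicate 1 and 951.7 in replicate 2. That at PNPase, the polynucleotide phosphorylase of mitochondria, had 1703, 933.4 and 771.7 in the same order and lay 81 bp downstream of its TSS, the only one of the 15 strongest that was downstream. The genes with the next strongest summits were Tina-1 (1620 in the pooled list), CG18549 (1601), Gapdh2 (1567), CG1635 (1514), for (1508), a cGMP-dependent protein kinase of feeding behaviour, and CG31145 (1505). Below them came Fkbp14 (1481), a protein-folding enzyme of the endoplasmic reticulum, CG1888 (1425), Hsp83 (1382), the fly Hsp90 chaperone, mRpL41 (1324), a mitochondrial ribosomal protein, and E23 (1313), an ABC transporter induced by ecdysone. All 15 ranked among the 43 strongest peaks of each replicate.

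**Figure D1:**
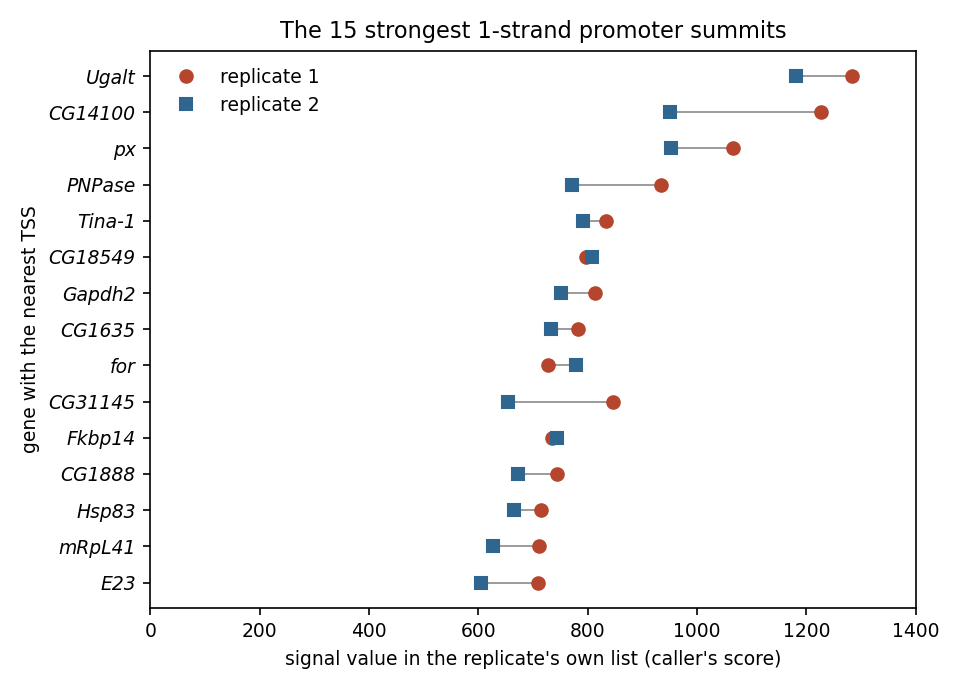
Signal value (caller's score, horizontal axis) in replicate 1 (circles) and replicate 2 (squares) for the 15 strongest 1-strand summits, named by the gene with the nearest TSS. Values ran from 709.2 to 1283 in replicate 1 and from 604.6 to 1181 in replicate 2. Caller and depth are not known, so the 2 lists were not taken to be on 1 scale.

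Over all 1421, the median signal value was 228.4 (quartiles 173.5 and 364.8), against 246.2 for both-strand summits and 211.7 for summits away from promoters. Their median rank in the list was 1998, against 1764 and 2298. When the list was cut into 5 equal groups by strength, 40.5% of the summits of the strongest group were 1-strand ones (95% interval 37.2 to 43.9), and between 29.5 and 32.6% of the other groups. The both-strand summits showed a like gradient, with 13.9% of the strongest group and 7.46% of the weakest. The strongest both-strand summits, for comparison, were those between CenG1A and mRpS23 (1595), between Chro and Ssl1 (1463) and between Art3 and mRpS10 (1438), weaker than the 6 strongest 1-strand ones.

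A peak was called strong in a replicate when it was among the 4291 strongest of that replicate's 30000 peaks. By this measure 985 of the 1421 summits were strong in both replicates, or 69.3% (95% interval 66.9 to 71.7), 403 in 1 replicate and 33 in neither. The share was 72.4% for both-strand summits and 68.4% for summits away from promoters, and the intervals overlapped. Across the 1384 summits covered by a peak in each replicate, Spearman's rho between the replicates' signals was 0.715. It is given as a description only, since the replicates' own peaks were used to derive the list. The widest gaps in rank were at dysc, a PDZ protein (rank 28507 in replicate 1 and 4264 in replicate 2), Mob2 (22503 and 1019), Tbh, the enzyme that makes octopamine (22182 and 1874), and aus (18638 and 2144). In all 4 the summit was stronger in replicate 2, and their pooled signal values were low, between 146.4 and 202.7.

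In 2 of the 1421, a peak covered the summit in neither replicate, and in 19 only replicate 2 and in 16 only replicate 1 had a covering peak. The strongest of those covered once were at by, the fly tensin (pooled signal value 1051), CG7737 (674.4), Cad96Cb (535.5) and Dh31-R (518.0). At by the pooled list had another summit at -450 bp from the same TSS, and at CG7737 another at -140 bp. At by, replicate 2 had a separate peak at each summit (signal values 497.5 and 426.0), while the nearest peak of replicate 1 (571.4, its summit 181 bp away) was the one that covered the other summit. At CG7737, replicate 1 had a peak at each (350.6 and 275.0), and the nearest peak of replicate 2 (329.9, 231 bp away) covered the other. One replicate thus lacked a separate peak at these 2 sites. At Cad96Cb and Dh31-R the nearest summit of replicate 1 lay 69 and 70 bp away, in a peak that did not reach the pooled summit and ranked 413 and 381.

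Whether start sites that stand alone had summits as often as paired ones was read from genes. Of the 8804 protein-coding genes with no opposite-strand TSS within 1000 bp, 947 had a summit within 500 bp of a TSS, or 10.8%. Of the 5141 genes with such a neighbour, 1054 had one, or 20.5%, beside 14.3% of all 13945 genes. The difference of -9.75 percentage points (95% interval -11.0 to -8.48) was present in both replicates, with 10.4% against 21.3% in replicate 1 and 11.2% against 23.0% in replicate 2. A gene with a close neighbour can be reached by a summit aimed at either start, and 1 summit then counts for both genes. Counted by TSS positions, 11.2% of the positions without an opposite-strand TSS within 500 bp had a summit, against 19.9% of the positions with one (difference -8.77 points, 95% interval -10.1 to -7.52). Here too, 1 summit counts for every position within 500 bp of it, so this count does not remove that limit. Counted by summits, 77.2% of promoter summits were 1-strand ones, near the 76.7% of TSS positions without an opposite-strand TSS within 500 bp. This sets summits beside positions, so it does not tell how often each kind of start site had a summit.

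The share of genes with a summit changed in steps with the distance to the neighbour. It was 19.1% of genes whose nearest opposite-strand TSS lay within 250 bp, 25% (454 of 1814) at 251 to 500 bp and 16.3% at 501 to 1000 bp. Farther away it was level, at 11.2% for both 1001 to 2000 bp and 2001 to 5000 bp and 10.3% beyond. A summit within reach of both starts of a pair counts for both genes, as stated above. How far this raised the shares at distances up to 1000 bp was not tested. The steps therefore do not show that each start of a pair had its own summit more often. On the large chromosome arms the share of genes without a neighbour that had a summit lay between 10.4 and 11.1%, and on chromosome 4 it was 13.8% (8 of 58 genes, 95% interval 6.15 to 25.4).

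**Figure D2:**
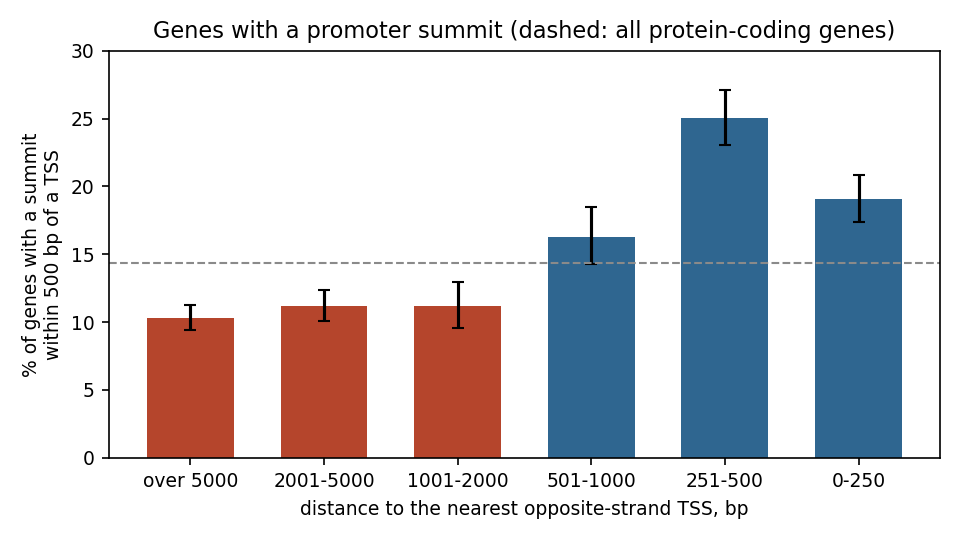
Share of genes with a summit within 500 bp of a TSS (vertical axis, %) by the distance to the nearest opposite-strand protein-coding TSS (horizontal axis, bp), with exact 95% binomial intervals. The 3 left bars are genes without a neighbour within 1000 bp and lie between 10.3 and 11.2%. The 3 right bars are genes with one and lie between 16.3 and 25%, and the dashed line marks 14.3% of all genes. In the 3 right bars a summit near both starts of a pair counts for both genes, and the effect of this was not tested.

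Among genes without a neighbour, those with several separate promoters had summits far more often. TSSs of 1 gene at most 500 bp apart were joined into a group of start sites. A summit was found at 7.26% of the genes with 1 group, 25.3% with 2, 36.1% with 3 and 54.5% with 4 or more. Per group of start sites, of which such genes have more, the shares were 7.26%, 14.9%, 15.6% and 16.2%. Genes with more than 1 group thus had summits at 14.9 to 16.2% of the groups, against 7.26% of single groups. The first group had a summit in 17.2% (95% interval 15.1 to 19.3) and later ones in 14.2% (12.7 to 15.8), intervals that overlap, and in genes with 4 or more groups the order was the other way, with 14.4% and 16.7%. The genes with a summit were also longer, with a median span of 7159 bp, against 1902 bp for those without. In 5 equal groups of genes from the shortest to the longest span, 1.98%, 5.17%, 7.56%, 12.7% and 26.4% had a summit.

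Most genes had 1 such summit (1036 genes), while 155 had 2, 17 had 3 and 6 had 4. The 6 were Ptpmeg2, RapGAP1, which inactivates the GTPase Rap1, Rtnl1, the actin-binding supervillin gene Svil, the engulfment adaptor ced-6 and dnc. At Ptpmeg2 the summits had signal values of 923.4, 664.2, 582.0 and 169.5 and lay 163, 197, 189 and 53 bp upstream of 4 start sites. At Rtnl1, a reticulon of the endoplasmic reticulum, they had 868.1, 202.0, 436.4 and 484.4, and all 4 lay between 194 and 284 bp upstream. The 4 summits at dnc, the cAMP phosphodiesterase dunce, were also all upstream, by 256 to 343 bp, with signal values from 164.8 to 806.6. At RapGAP1 and ced-6, by contrast, pairs of summits shared a start site, so the number of summits there exceeds that of the promoters. The strongest of these summits were near the top of both replicates' lists. That at Ptpmeg2 had 493.6 in replicate 1 and 435.0 in replicate 2 (ranks 107 and 119), and that at RapGAP1 (pooled 1101) had 564.0 and 537.7 (ranks 71 and 60).

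Along the direction of transcription the summits lay mostly upstream. Of the 1421, 1020 were upstream of the nearest TSS, 4 on it and 397 downstream, or 27.9% (95% interval 25.6 to 30.4), and the median position was 134 bp upstream with quartiles at -256 and 14 bp. The most filled 100 bp were those from 200 to 101 bp upstream, with 309 summits. In replicate 1 alone 26.2% were downstream (median -144 bp) and in replicate 2 alone 31.5% (median -105 bp). Which TSS is taken matters: measured from the TSS of the same gene that lies farthest 5′, 56.6% were downstream, since many of these genes have later start sites. Both-strand summits lay at a median of -81 bp, but between a pair of starts the nearest cannot be far, so the 2 profiles are not like for like.

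**Figure D3:**
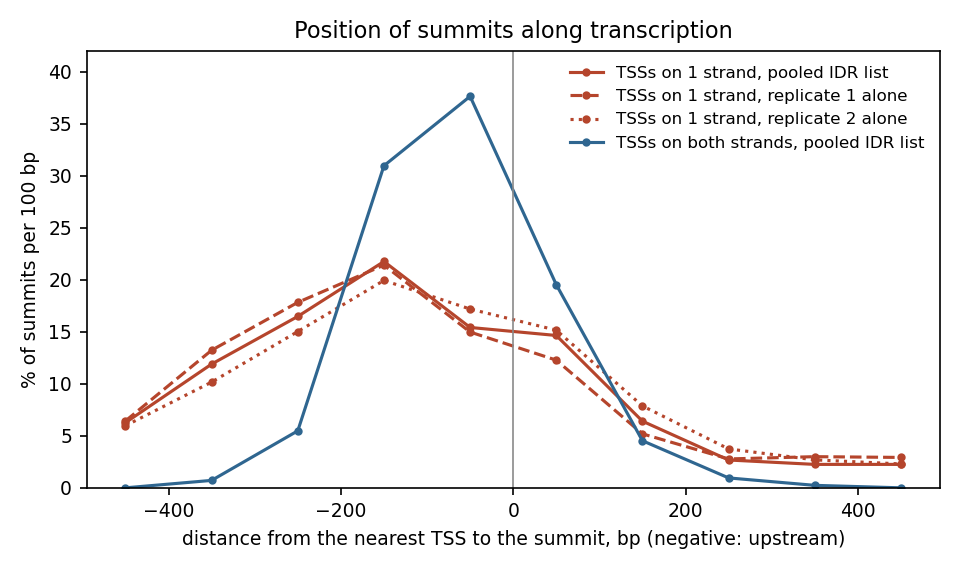
Signed distance from the nearest protein-coding TSS to the summit (horizontal axis, bp, negative upstream) against the share of summits per 100 bp (vertical axis, %). The 1-strand summits of the pooled list (solid), of replicate 1 (dashed) and of replicate 2 (dotted) are all most frequent 101 to 200 bp upstream, with 21.7% in the pooled list. The both-strand summits are shown for comparison.

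Position went with strength. In 5 equal groups of the 1-strand summits from the strongest to the weakest, the share downstream of the TSS was 14.7%, 19.4%, 31.3%, 32.0% and 42.3%, and the median position was -182, -176, -107, -106 and -37.5 bp. The distance in either direction had medians of 197, 190, 160, 161 and 128 bp, and its quartiles overlapped between the groups (126 to 295 bp in the strongest, 55 to 253 bp in the weakest). Just inside the 500 bp limit were the summits at jar, myosin VI (499 bp upstream, signal value 419.8), CG42571 (498 bp upstream, 227.5) and Phyhd1 (495 bp upstream, 188.0). Just outside it were those near aru (502 bp downstream, 350.6), PHDP (504 bp upstream, 207.1) and CG31612 (505 bp downstream, 742.8). The median signal value was 228.4 for the 55 summits at 451 to 500 bp and 259.6 for the 62 summits at 501 to 550 bp.

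Genes of the cytosolic ribosome were set apart by position. Of the 85 cytosolic ribosomal protein genes, 40 had a 1-strand summit, 26 had only a both-strand one and 19 had none. The strongest summit of 37 of the 40 (92.5%, 95% interval 79.6 to 98.4) lay within 50 bp of the nearest TSS, as did that of 17.4% of all 1243 genes with a 1-strand summit (216). Its median position was 1.5 bp, and -131 bp for all 1243. The labels give a fragment size of 200 to 800 bp, so distances of a few bp are those of the called summit only. At RpS4 the summit lay 5 bp downstream, with a signal value of 976.4 in the pooled list, 473.2 in replicate 1 and 501.9 in replicate 2. At RpS10b it lay 2 bp downstream (895.4, 497.7 and 405.0 in the same order) and at RpL24 15 bp upstream (796.4, 439.7 and 347.7). These 3 were named as the strongest of the list, so their high values follow from the choice. The strongest summit of each of the 40 genes had a median rank of 1034, against 1829 for all 1243 genes. The elongation factors eEF2 and eEF1gamma, which serve the ribosome in translation, had their summits at the same place, eEF2, 2 bp downstream (477.1), and eEF1gamma, 19 bp upstream (858.3).

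Sequence words differed between the kinds of start site. The GAGA word (GAGAGAG on either strand) was present in 21.2% of the 301 bp windows, from 250 bp before to 50 bp after the TSS, of the 1321 start sites nearest to 1-strand summits (95% interval 19.0 to 23.5). The share was 2.18% at the 412 start sites of both-strand summits, 6.98% at the 9934 start sites of genes that had neither an opposite-strand TSS within 1000 bp nor a summit, and 7.65% of all 19252 start sites. In replicate 1 alone it was 20.8% of the start sites of 1-strand summits against 2.06% of those of both-strand ones, and in replicate 2 alone 21.8% against 3.08%. Ptpmeg2, CG1907 and Btk, shown above, are examples. The CA repeat (CACACACA) had the same order, with 8.93% of the start sites of 1-strand summits, 2.67% of those of both-strand summits and 5.63% of those with neither a neighbour nor a summit. The words GAGAGAG and CACACACA are runs that can match several times in 1 place, so only presence was counted. At paired starts the window before 1 TSS can take in part of the other promoter.

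The DRE word and motif 1 went the other way. The DRE word was in 5.37% of the windows at start sites of 1-strand summits and in 16.3% of those of both-strand summits (difference -10.9 points, 95% interval -14.9 to -7.37), and motif 1 in 5.68% and 12.4% (difference -6.70 points, -10.4 to -3.55). Start sites with neither a neighbour nor a summit had 5.15% and 3.89%, so for the DRE word the start sites of 1-strand summits were near those without one. The Inr word (TCAGTT) was in 28.5% of the windows of 1-strand summits, 16.7% of both-strand ones and 29.5% of those with neither. An E-box CAGCTG was in 20.8%, 26.9% and 14.9% of the same windows. A TATAAA in its usual place, 40 to 20 bp before the TSS on the sense strand, was found at 4.16% of the start sites of 1-strand summits, 1.46% of those of both-strand summits and 9.19% of those with neither.

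**Figure D4:**
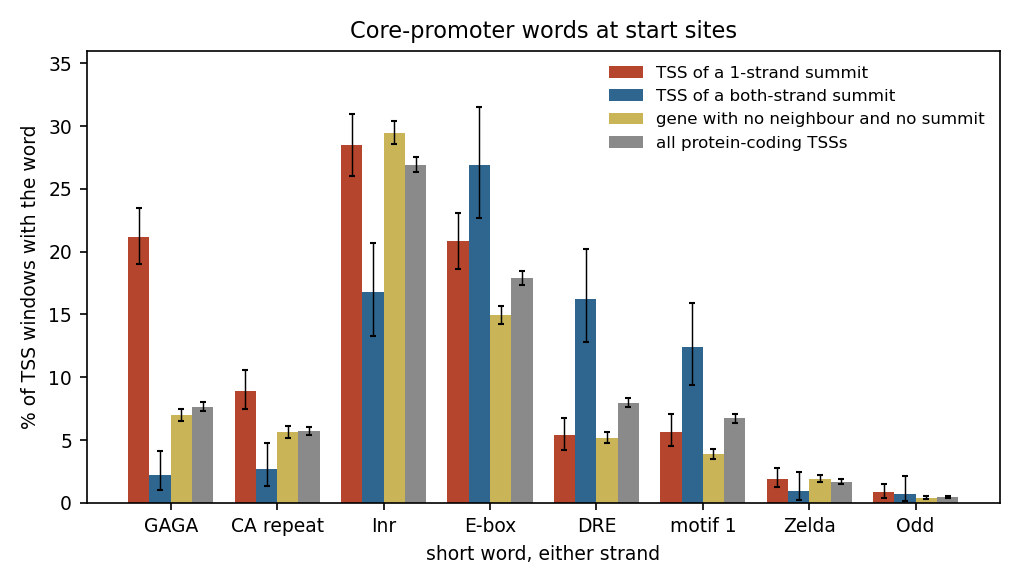
Share of 301 bp windows at start sites that hold each word on either strand (vertical axis, %), with exact 95% binomial intervals. TATAAA is not shown. The groups are start sites of 1-strand summits, of both-strand summits, of genes with neither a neighbour nor a summit, and all protein-coding start sites. GAGA stands at 21.2% for 1-strand summits, above the 3 other groups, and DRE at 16.3% for both-strand summits.

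Centred on the summits themselves, in windows of 201 bp, the GAGA and DRE words kept the direction of their difference between 1-strand and both-strand summits, at 8.97 points for GAGA (95% interval 6.91 to 10.7), against 19.0 at the start sites, and -8.15 for DRE (-11.5 to -5.42). For the E-box the difference was -6.12 points at the start sites (-11.1 to -1.47) and -3.10 at the summits, with an interval that includes 0 (-7.08 to 0.394). The GAGA word was in 9.92% of the windows of 1-strand summits (141 of 1421), 0.952% of those of both-strand summits and 5.06% of those away from promoters, beside 4.69% of windows of that length centred on all TSSs. The DRE word was in 2.32%, 10.5% and 0.245% of the same 3 groups, and in 6.45% of the windows on all TSSs. The Odd word ACAGTAGC was rare everywhere: it was in 9 of the 1421 windows (0.633%, 95% interval 0.290 to 1.20), in 0.714% of those of both-strand summits and in 1.02% of those away from promoters, beside 0.358% on all TSSs. The Zelda word CAGGTAG, bound by the factor that opens chromatin at zygotic genome activation, was in 1.06%, 0.714% and 1.47%, beside 1.08%. For these last words the intervals overlapped between the 3 kinds of summit.

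TATAAA anywhere in the window was in 30.4% of the windows of 1-strand summits, 44.0% of both-strand ones and 33.9% of those away from promoters. Within the 1-strand summits it was in 37.5% of those above the median signal and 23.3% of those below it, while at the start site TATAAA was in 264 of 660 windows above and 229 of 661 below it, with overlapping intervals. A match lay a median of 205 bp upstream of the TSS, far from the usual place of a TATA box. Base composition moved with this: G and C made up 39.1 ± 9.3% of the window of 1-strand summits (mean ± SD over 1421 windows), 34.7 ± 7.8% of both-strand ones (420) and 36.8 ± 7.5% of those away from promoters (2450). In the 301 bp windows at start sites G and C made up 42.8 ± 7.6% for 1-strand summits and 36.4 ± 5.7% for both-strand ones. Start sites with neither a neighbour nor a summit had 40.5 ± 8.3%. The part of base composition in the word shares was not tested. For the GAGA word the shares were 8.31% above and 11.5% below the median signal at the summit, and 22.7% and 19.7% at the start site.

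By function, genes were read from 25 lists, against 8.91% of all protein-coding genes with a 1-strand summit. Counts over a list describe it only. They were not adjusted for gene span or number of start sites, which moved with the presence of a summit. All 4 genes of the odd family, zinc finger genes that lie in 1 stretch of chromosome arm 2L, had one. At odd itself (chr2L:3606873-3607328 on dm6) the summit lay 315 bp upstream of the TSS, with a signal value of 930.4 in the pooled list, 463.4 in replicate 1 and 466.6 in replicate 2. At bowl it lay 274 bp upstream (596.6, 281.0 and 333.7), at sob 171 bp upstream (330.5, 152.8 and 184.3) and at drm 237 bp downstream (541.0, 262.6 and 271.0). The labels do not state whether the transgene carries a copy of the odd promoter. The nearest opposite-strand TSS was between 4559 and 34472 bp from these 4 genes' own.

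In the lists of other genes that pattern the early embryo, a 1-strand summit was present at shares near or above the 8.91% of all genes. It was found at 1 of 8 pair-rule genes, hry (38 bp upstream, signal value 265.6), the repressor Hairy, and at 1 of 11 gap and head gap genes, hb (309 bp downstream, 234.8). Among 11 Hox genes and cofactors 1 had one, lab (155.1). Of 19 segment polarity, Hedgehog and Wingless genes 4 did: nkd, an inhibitor of Wingless signalling (465.2), arr, its co-receptor (313.6), pan, its transcription factor (209.4), and fz2. With 8 to 19 genes a list these shares, 9.09 to 21.1%, have wide intervals that include 8.91%.

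The Notch list and the JAK/STAT and JNK list stood higher. Of 19 Notch pathway genes 10 had a 1-strand summit (52.6%, 95% interval 28.9 to 75.6), and for the 13 without a neighbour the count with any promoter summit was 7, against 10.8% of all such genes. They include the target repressors E(spl)m3-HLH (834.5 in the pooled list, 535.4 in replicate 1 and 323.8 in replicate 2), E(spl)mbeta-HLH (524.2, 234.6 and 290.7) and E(spl)m7-HLH. The co-repressor gro was another (624.2, 396.4 and 225.5). The summits of gro and these E(spl) genes lie in 1 stretch of chromosome arm 3R (26006179 to 26042514). The interval counts such neighbours as separate genes. The Notch ligand gene Delta had a 1-strand summit too. The rest were mam, fng, neur, numb and kuz. In this order, they act in the nucleus, in receptor modification, in ligand uptake, as an inhibitor and as a receptor-cleaving protease. Of 13 JAK/STAT and JNK pathway genes 6 had one (46.2%, 19.2 to 74.9): the zinc finger factor cbt (813.1), the transcription factor Stat92E (469.8), the JNK phosphatase puc (168.4), the receptor dome, the kinase bsk and the Fos gene kay. The strongest summit of each gene had a median rank of 529 for the Notch genes and 3542 for the JAK/STAT and JNK genes, against 1829 for all 1243 genes with a 1-strand summit. Of 17 Egfr and Ras pathway genes 4 had one, the ligand spi (538.7), the inhibitor aos (615.8) and the effectors pnt (300.3) and aop, an interval (6.81 to 49.9%) that includes 8.91%.

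Regulators of chromatin and hormone response were also frequent. Of 27 genes for chromatin regulators, GAGA factor and insulator proteins 9 had a 1-strand summit (33.3%, 95% interval 16.5 to 54.0), led by the Polycomb group gene ph-p (1183 in the pooled list, 661.6 in replicate 1 and 574.5 in replicate 2). Its near-identical neighbour ph-d was counted too, and how reads shared by the pair were placed is not stated in the labels. The GAGA factor gene Trl itself had one 140 bp downstream of its TSS (309.1, 205.6 and 103.0), and lola, a BTB zinc finger gene, one 347 bp upstream (459.2). Of 16 ecdysone and nuclear receptor genes 6 had one (37.5%, 15.2 to 64.6), with Eip75B at 716.9, Hnf4 at 482.7 and Hr78 at 468.0. The summit of Hr78 was 1 of the 2 that no peak of either replicate covered. The strongest summit of each gene had a median rank of 3029 for the chromatin list and 1747 for the ecdysone list. The median rank was 1829 for all 1243 genes with a 1-strand summit. Of 17 mesoderm and muscle regulators 5 had one (29.4%, 10.3 to 56.0), among them tin, the heart factor (413.2), stumps (376.5) and htl (248.8), which act in FGF signalling.

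The actin and junction list had 6 of 23 genes (26.1%, 95% interval 10.2 to 48.4), led by sqh, the myosin light chain (594.6), and the cell cycle list 6 of 24 (9.77 to 46.7%), led by the E2F partner Dp (469.0). The Hippo list had 3 of 12, ex (440.5), Mer (303.1) and kibra (181.0), all upstream activators of the pathway. The Dpp and dorsoventral list had 3 of 16, the transcription factor shn (874.8), the inhibitor Dad (196.7) and the receptor tkv (157.7), and the neural list 4 of 21, with elav, an RNA-binding protein of neurons, at 1086, pros at 261.8 and brat at 165.6. For the last 3 lists the interval includes 8.91%. Of 51 translation factor genes 9 had one (17.6%, 8.40 to 30.9), led by eIF6 (1000), and of 25 heat shock protein genes 4 (16.0%, 4.54 to 36.1), with Hsp27 (754.1) and Hsp26 (453.8) after Hsp83.

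Several large families had fewer than the background. Of 119 odorant and gustatory receptor genes none had a 1-strand summit, which allows a share of up to 3.05% (exact upper limit). Of 111 ionotropic receptor and odorant-binding protein genes 2 had one (1.80%), Obp99b (407.0) and Obp83g (163.0). Of 70 cuticle protein genes of the Cpr family it was 2 (2.86%), Cpr67Fb (260.8) and Cpr65Av (186.3). Some housekeeping families other than the cytosolic ribosome were low too, though not the translation factor genes (17.6%). Of 87 oxidative phosphorylation genes 2 had one (2.30%), ATPsynC (248.2) and ND-B22 (183.5). Of 48 proteasome genes it was 1 (2.08%), Rpn11 (145.1). Of 73 mitochondrial ribosomal protein genes it was 2 (2.74%), mRpL41 and mRpL19 (151.4). The 95% interval ended below 8.91% for the chemosensory lists (upper bounds 3.05 and 6.36%) and for oxidative phosphorylation (8.06%), and included it for the cuticle, proteasome and mitochondrial ribosomal lists. Of the mitochondrial ribosomal genes 14 more had a both-strand summit only. In this list 15 of 73 genes had no neighbour, against 33 of 85 cytosolic ribosomal protein genes.

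**Figure D5:**
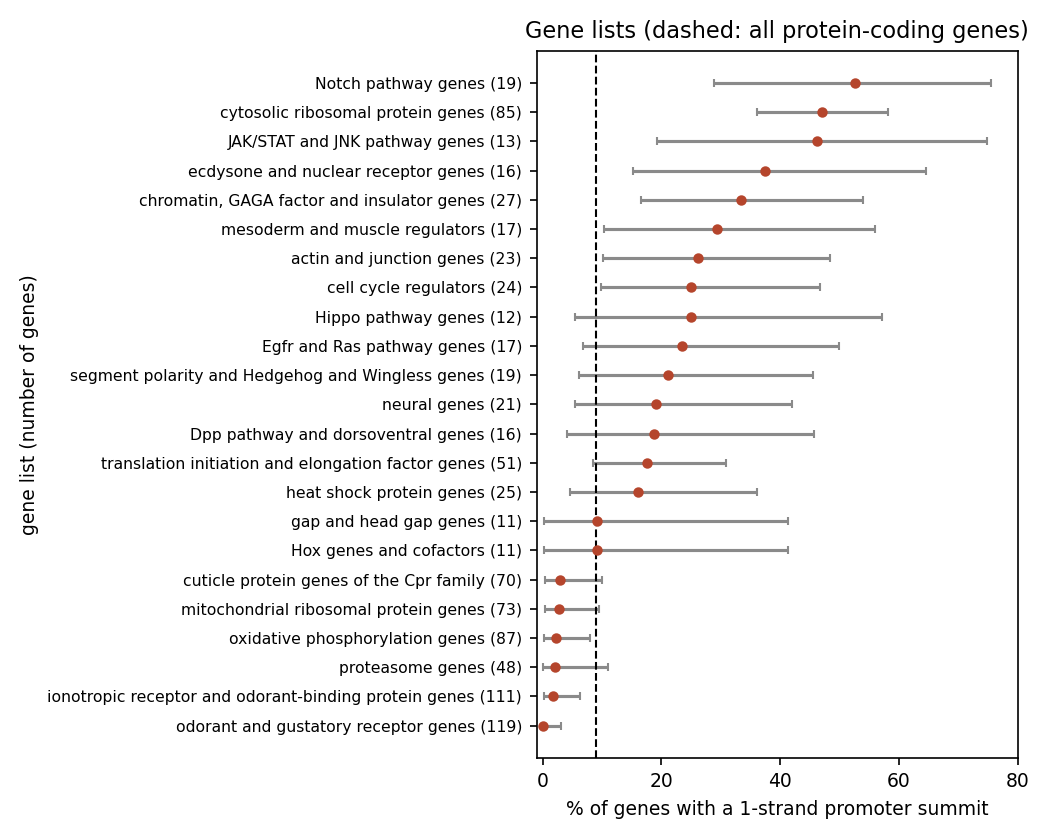
Share of genes with a 1-strand summit (horizontal axis, %) for each list of 10 or more genes (vertical axis, with the number of genes), with exact 95% binomial intervals; the dashed line marks 8.91% of all protein-coding genes. Notch pathway, cytosolic ribosomal protein and JAK/STAT and JNK genes stand highest, at 46.2 to 52.6%, and odorant and gustatory receptor genes at 0.

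The rule looks at protein-coding genes within 500 bp. Within that distance 99 of the 1421 summits (6.97%) had a TSS of a non-coding gene, and in 80 (5.63%) it lay on the opposite strand. An opposite-strand protein-coding TSS lay 501 to 1000 bp from the summit in 162 (11.4%) and over 5000 bp away in 693 (48.8%), with a median distance of 4856 bp.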

How the data were processed

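Per the records deposited beside the lists, the authors called peaks in each replicate and in the pooled replicates, each against a control, and derived the IDR list from those 3 relaxed lists. Not given in the sources used here: caller, aligner and IDR threshold. The value used is the deposited signal value, a score. The summit comes from the deposited offset within the peak, another number of the record. Coordinates are 1-based on dm6. Start sites came from the Ensembl release 115 annotation and sequence from the NCBI Release 6 genome. A replicate alone means its 4291 strongest peaks. A replicate's value at a summit is that of the covering peak with the nearest summit. Shares have exact (Clopper-Pearson) and differences Newcombe 95% intervals. Words were sought on both strands.

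The depth of the libraries is unknown. Classes, positions and words were tested on simulated data. The genes named are the 15 strongest, up to 3 per list, the most discordant between replicates, those at the 500 bp limit, those with most summits, those that hold a word, the odd family and the strongest both-strand summits; list members without values (such as fz2 or mam) complete counts. The summits and lists were chosen with earlier results of these data known. Sequence on some chromosome arms is not shown. After the first count, 3 listed names were brought to the annotation's symbols (Delta, Raf and aop, which was already listed). Python 3.11.15, numpy 2.4.6, pandas 2.3.3 and scipy 1.17.1 were used. Alternatives were the promoter and neighbour distances, the TSSs counted, the strength of peaks, 1 summit per region, each replicate alone, the strong-peak rule and the word window.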

Additional observations from a re-analysis of the deposited data

How the results depend on the processing

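No paired analysis was possible because there is 1 group. With no test over samples, a value was taken as moved when it left the exact 95% interval of the reported one, and the causes were not tested. The share of promoter summits with TSSs on 1 strand (77.2%) was 82.2% with a promoter distance of 250 bp, 73.1% with 1000 bp, 71.9% with the farthest 5′ TSS of each gene and 74.4% with non-coding TSSs counted, and 75.6 to 76.8% in the replicates alone. The share of genes without a neighbour that had a summit (10.8%) was 11.5% with neighbours within 500 bp, 7.80% and 12.8% with promoter distances of 250 and 1000 bp and 5.99% with the 2145 strongest peaks, which are fewer, and 10.4 to 11.2% in the replicates alone. The median signal value (228.4) stayed between 222.9 and 236.2. The share downstream (27.9%) was 56.6% from the farthest 5′ TSS, 32.1% and 31.4% with 250 and 1000 bp, and 26.2 to 31.5% in the replicates alone. The share strong in both replicates (69.3%) was 65.5% when the replicate's summit had to lie within 100 bp, 40.9% with 2145 strong peaks per replicate, 93.2% with 8582, and 72.7% with the strongest covering peak, an alternative added after seeing the data. Of 54 word shares under another window, region or replicate 24 moved, mostly with the window length; the alternatives at the start site and by replicate were also added later. Depth is unknown and limits what the lists can show.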
